A study of Mus musculus with 6 samples.

Results

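The levels of 7 microRNAs (miRNAs) with described roles at synapses and in neuronal excitability were followed in the prefrontal cortex of old mice: mmu-miR-129-5p, mmu-miR-129-2-3p, mmu-miR-135a-5p, mmu-miR-137-3p, mmu-miR-138-5p, mmu-miR-153-3p and mmu-miR-218-5p. They were chosen by name, and 7 of the 7 were among the 1189 entries listed in every library. The libraries came from 6 male wild-type C57BL/6 mice, 3 of the PND group (postoperative neurocognitive disorder) and 3 of the CON group, with 1 small RNA library per mouse. PND mice inhaled 1.5% isoflurane (30 min), after which the abdomen was opened and explored under isoflurane (laparotomy, 30 min), with lidocaine cream and povidone iodine afterwards. CON mice had neither this anesthesia nor the operation, so the effects of these 2 and of the wound care cannot be told apart here. Mice of both groups had fear conditioning with foot shocks before the operation. Afterwards came an open field test, fear memory tests and, on postoperative days 2 to 6, the Barnes maze, a spatial memory task. After the last maze test, mice of both groups were deeply anesthetized with isoflurane and perfused with saline before the cortex was taken. The recorded age was 18 months, whereas the sample names carry 17 months. The question was whether the level of each miRNA differed between the PND and CON groups.

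A mature miRNA is cut from a hairpin precursor and guides Argonaute proteins to messenger RNAs that pair with its seed, bases 2 to 8 of the miRNA. Bound messages are translated less or degraded. In neurons many miRNAs act close to synapses, where they limit the local supply of receptors, channels and vesicle proteins. miR-137-3p and miR-153-3p are known for presynaptic targets, among them the vesicle sensor gene Syt1 and the SNARE genes Snap25 and Vamp2. miR-138-5p restrains the size of dendritic spines through Lypla1, a depalmitoylating enzyme, and miR-135a-5p has been tied to spine shrinkage and to the serotonin genes Slc6a4 and Htr1a. miR-129-5p represses the potassium channel gene Kcna1 and takes part in the downscaling of overactive synapses. miR-218-5p lies in the Slit genes and represses Robo1 and, in the prefrontal cortex, the netrin receptor gene Dcc.

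The mature sequences are shown because the seed decides which messages each miRNA can pair with. They were taken from RefSeq (GRCm38.p6), in which 7 of 7 were found, and capitals mark the seed.
mmu-miR-137-3p: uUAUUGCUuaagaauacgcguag
mmu-miR-153-3p: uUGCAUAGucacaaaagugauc
mmu-miR-138-5p: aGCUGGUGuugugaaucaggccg
mmu-miR-135a-5p: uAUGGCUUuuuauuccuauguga
mmu-miR-129-5p: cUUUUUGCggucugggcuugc
mmu-miR-129-2-3p: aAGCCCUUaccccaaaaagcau
mmu-miR-218-5p: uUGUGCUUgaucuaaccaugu

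No seed occurred in more than 1 of the 7 sequences, and none was shared with another listed miRNA that has a RefSeq entry. Listed miRNAs without a mature sequence there, among them miR-135b-5p of the same family as miR-135a-5p, could not be compared. The miRNAs were 21 to 23 bases long. Their G + C content ran from 30.4% in miR-135a-5p to 57.1% in miR-129-5p.

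The hairpins lie at 10 positions of GRCm38, and 4 of the 7 miRNAs can come from a pair of hairpins, so that the 5p arm does not tell which locus was read. miR-218-5p is encoded in introns of Slit2 (Mir218-1, chr5:48223942-48224051, plus strand) and Slit3 (Mir218-2, chr11:35616816-35616925, plus strand), genes of secreted axon guidance proteins. miR-129-5p is encoded in an exon of the long noncoding RNA gene Gm3294 (Mir129-1, chr6:29022619-29022691, plus strand) and in an intron of Mir670hg (Mir129-2, chr2:94241364-94241453, minus strand). miR-129-2-3p is the opposite arm of Mir129-2 alone. miR-135a-5p is encoded in an intron of D030055H07Rik, opposite an exon of Glyctk (Mir135a-1, chr9:106154124-106154213, plus strand), and in an intron of the long noncoding RNA gene Rmst (Mir135a-2, chr10:92072086-92072185, minus strand). miR-138-5p is encoded in exons of the pseudogene Gm47135 (Mir138-1, chr9:122682876-122682974, plus strand) and the long noncoding RNA gene C78859 (Mir138-2, chr8:94324311-94324381, plus strand). miR-137-3p comes from an exon of Gm26871 (Mir137, chr3:118433857-118433929, plus strand). miR-153-3p comes from an intron of Ptprn2, a gene of a dense core vesicle protein (Mir153, chr12:117250817-117250885, plus strand).

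Levels are given as CPM, reads per 1000000 reads on all listed entries. The libraries held 14849461 to 19471226 such reads, so 3 reads corresponded to 0.154 to 0.202 CPM, and the 7 miRNAs took 1.92% to 3.02% of the reads. One other miRNA, the neuronal miR-128-3p, took 17.6% to 29.2% of the reads, with the highest share in CON mouse 2. Neuronal marker miRNAs were abundant in every library, with a summed level of 278690 to 370417 CPM over 3 of 3 markers. Most of this sum was miR-128-3p. The other 2 markers, miR-124-3p (4018 CPM) and miR-9-5p (74050.5 CPM), had their lowest level in CON mouse 2. The libraries of CON mice 1 and 2 and of PND mouse 1 stood apart in marker levels. In CON mouse 1 the summed level of 8 epithelial or olfactory markers was 1646 CPM, against 67.0 to 198 CPM in the other 5 mice. In CON mouse 2 the summed level was the lowest of the 6 mice for 6 of 8 marker lists, and 64.2% of the 193 miRNAs that averaged 100 CPM or more had their lowest level there. Oligodendrocyte markers summed to 1384 to 1765 CPM, leukocyte and microglial markers to 1013 to 1194 CPM, and endothelial and mural markers to 19026 to 24042 CPM. Most of the leukocyte and microglial sum was miR-146a-5p (1001 to 1173 CPM). The others were low: miR-142a-3p at 4.24 to 16.9 CPM, miR-142a-5p at 0.741 to 2.43 CPM and miR-223-3p at 1.44 to 2.42 CPM. Among the leukocyte and microglial markers only miR-142a-5p had groups that did not overlap, with PND higher, against 9.92% of all entries. The same held for miR-145a-5p among the endothelial and mural markers, narrowly, at 234.4 to 263.9 CPM in PND and 165.1 to 233.9 CPM in CON. Red blood cell markers summed to 101 CPM in PND mouse 1 and to 31.9 to 54.7 CPM in the other mice, and miR-451a stood at 40.9 CPM in PND mouse 1 against 0.62 to 3.08 CPM. The sums were 756 to 1257 CPM for choroid plexus and ciliated cell markers and 42.0 to 60.6 CPM for hindbrain and spinal cord markers (3 of 4 listed). miR-144-3p, miR-144-5p, miR-141-3p and miR-196a-5p were at 0 in some library. Differences are given also without each of these 3 mice, and the part of these markers in them was not tested. In bulk tissue, fewer cells of a type and less RNA per cell cannot be told apart.

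The levels of the 7 miRNAs spanned more than 2 orders of magnitude. miR-218-5p was the most abundant, at ranks 9 to 14 of all entries in the 6 libraries, and miR-129-5p followed at ranks 24 to 28. The mean over the 6 mice was 2.61 times higher for miR-218-5p than for miR-129-5p, and their ranges did not overlap. miR-129-5p was in turn 11.5 times higher than miR-129-2-3p, again without overlap. Below these, miR-129-2-3p, miR-138-5p, miR-135a-5p and miR-153-3p followed each other with ratios of the means of 1.29, 1.19 and 1.87, and each was above the next in 6 of 6 mice, although their ranges over the mice overlapped. The lowest were miR-153-3p and miR-137-3p, which changed places in CON mouse 2, where miR-153-3p had 0.583 of the level of miR-137-3p, and kept this order in the other 5 mice. miRNAs differ little in length, so CPM was compared between them without a length correction, but ligation and amplification biases between sequences were not measured.

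**Figure D1:**
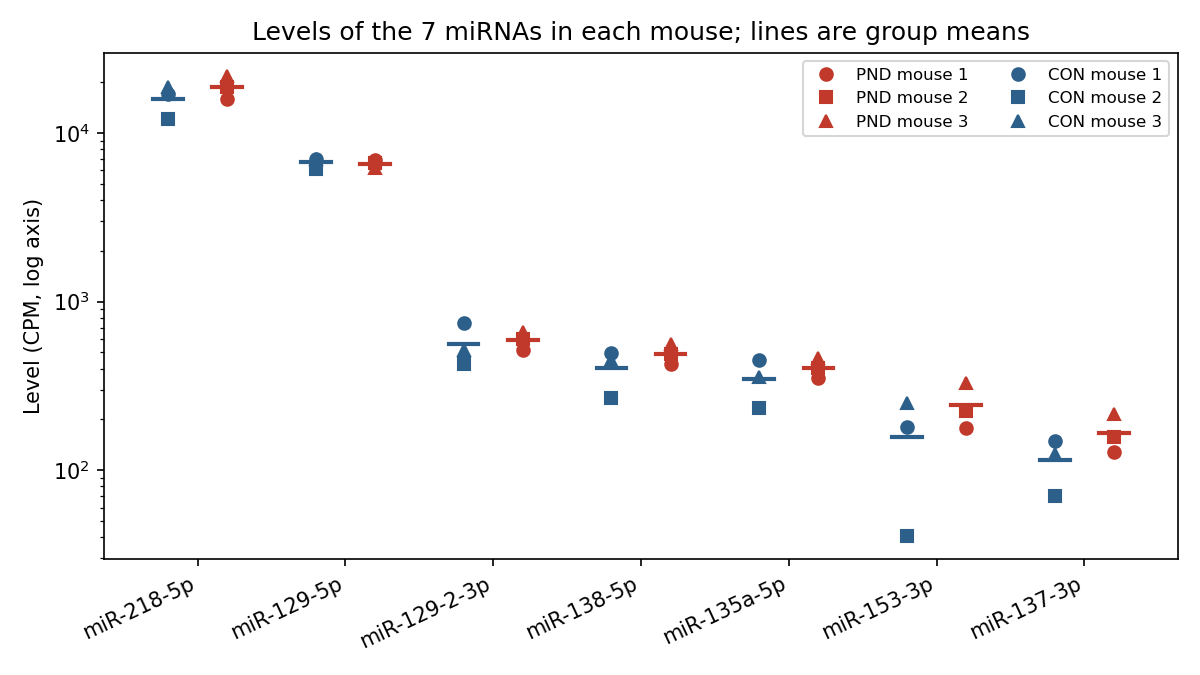
Level of each of the 7 miRNAs in CPM (log axis) in each mouse, PND in red and CON in blue, with the group means as lines. The PND and CON points overlap for every miRNA, and CON mouse 2 (blue square) is the lowest point of each miRNA, at 40.7 CPM for miR-153-3p.

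None of the 7 miRNAs passed a test of PND against CON. In limma on log2(CPM + 1) of all entries, 0 of the 7 passed both an unadjusted p under 0.05 and a fold change above 2, against 1 of 1189 entries (0.0841%). At an unadjusted p under 0.05 alone, 0 of the 7 passed against 61 entries (5.13%), and 0 of the 7 had a Benjamini-Hochberg adjusted p under 0.05 against 5 entries (0.421%). Those 5 entries have no miRBase name, and their log2 differences took only the values 0.85 and 0.80, so they are not separate signals. The PND and CON mice did not overlap for 0 of the 7, against 118 entries (9.92%). Among 17 alternative settings, a member passed in DESeq2 on the recovered reads only, with miR-137-3p at an unadjusted p under 0.05. With 3 mice against 3, the smallest p an exact permutation test allows is 0.1. The sign was positive (PND above CON) for 6 of the 7 and negative for miR-129-5p, and the sign of miR-129-2-3p turned under TMM factors and DESeq2 size factors. Their median was 0.27 on the log2 scale, beside 0.11 over the same 193 miRNAs and 0.05 over all entries.

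Among the miRNAs with presynaptic targets, mmu-miR-153-3p had the widest spread. It stood at 178, 224 and 329 CPM in PND mice 1 to 3 and at 181, 40.7 and 251 CPM in CON mice 1 to 3. CON mouse 2 was 5.31 times below the mean of the other CON mice, and those lay within the PND range. The value of CON mouse 2 rested on 604 reads, for which counting error alone is 4.07%, whereas the coefficient of variation between CON mice was 68.0%. The log2 difference (PND minus CON) was 0.93 (SE 0.61, 95% confidence interval -0.49 to 2.36, limma adjusted p = 0.768), and the exact permutation p was 0.5. This interval runs from 0.712-fold to 5.12-fold, so a level more than 2-fold higher in PND lies inside it. Without CON mouse 2 the difference was 0.15, without CON mouse 1 it was 1.21, and without CON mouse 3 it was 1.44.

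mmu-miR-137-3p, which lies in a locus tied to schizophrenia in human genetics, gave the smallest p of the 7. Its level was 128, 158 and 214 CPM in PND mice and 149, 69.8 and 125 CPM in CON mice. PND mice 2 and 3 lay above all CON mice, PND mouse 1 lay inside the CON range, and CON mouse 2 was the lowest. The log2 difference was 0.58 (SE 0.30, 95% confidence interval -0.12 to 1.27), with a limma p of 0.0906 before and 0.768 after adjustment and an exact permutation p of 0.2. DESeq2 on the recovered reads gave a p of 0.0492 before and 0.983 after adjustment, and the smallest adjusted p of any member over all settings was 0.570. The difference was 0.26 without CON mouse 2 and 0.80 without CON mouse 1.

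miR-138-5p and miR-135a-5p, the pair known from dendritic spines, varied alike between mice. mmu-miR-138-5p stood at 425, 486 and 560 CPM in PND mice and at 495, 268 and 448 CPM in the CON mice. CON mouse 2 alone lay below the PND range. The log2 difference was 0.32 (SE 0.23, 95% confidence interval -0.22 to 0.86, limma adjusted p = 0.768), and was 0.05 without CON mouse 2 and 0.49 without CON mouse 1. mmu-miR-135a-5p stood at 350, 405 and 460 CPM in PND mice and at 450, 232 and 355 CPM in the CON mice. Again CON mice 1 and 3 fell within the PND range and CON mouse 2 below it. The log2 difference of miR-135a-5p was 0.27 (SE 0.24, 95% confidence interval -0.28 to 0.82, limma adjusted p = 0.768), and was 0.01 without CON mouse 2 and 0.49 without CON mouse 1. The exact permutation p was 0.5 for both.

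The arms of the miR-129 hairpins had different spreads. mmu-miR-129-5p was the steadiest of the 7, at 6872, 6656 and 6212 CPM in PND mice and 7051, 6104 and 7009 CPM in CON mice. The highest level was only 1.16 times the lowest, with CON mouse 2 lowest and PND mouse 3 close to it. The group means were 6580 ± 337 CPM (SD, n = 3) in PND and 6721 ± 535 CPM (SD, n = 3) in CON. The log2 difference of miR-129-5p was -0.03 (SE 0.09, 95% confidence interval -0.25 to 0.19, limma adjusted p = 0.958), an interval that lies within 2-fold on either side, and it was -0.10 without CON mouse 2 and 0.0073 without CON mouse 1. mmu-miR-129-2-3p stood at 518, 603 and 662 CPM in PND mice and at 744, 427 and 513 CPM in the CON mice. Here the CON mice enclosed the PND mice, with CON mouse 1 highest and CON mouse 2 lowest. The log2 difference of miR-129-2-3p was 0.11 (SE 0.21, 95% confidence interval -0.36 to 0.59, limma adjusted p = 0.900). Its sign was negative without CON mouse 2 (-0.06) and with TMM factors or DESeq2 size factors, and it stayed positive with miR-128-3p left out of the total (0.029) and without CON mouse 1 (0.34). The exact permutation p was 0.6 for miR-129-5p and 0.7 for miR-129-2-3p.

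mmu-miR-218-5p stood at 15938, 18626 and 21785 CPM in PND mice and at 16934, 12038 and 18766 CPM in the CON mice. CON mice 1 and 3 lay inside the PND range and CON mouse 2 below it. The group means were 18783 ± 2927 CPM (SD, n = 3) in PND and 15913 ± 3478 CPM (SD, n = 3) in CON. The log2 difference was 0.25 (SE 0.18, 95% confidence interval -0.17 to 0.68, limma adjusted p = 0.768), with an exact permutation p of 0.5, and it was 0.06 without CON mouse 2 and 0.31 without CON mouse 1.

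**Figure D2:**
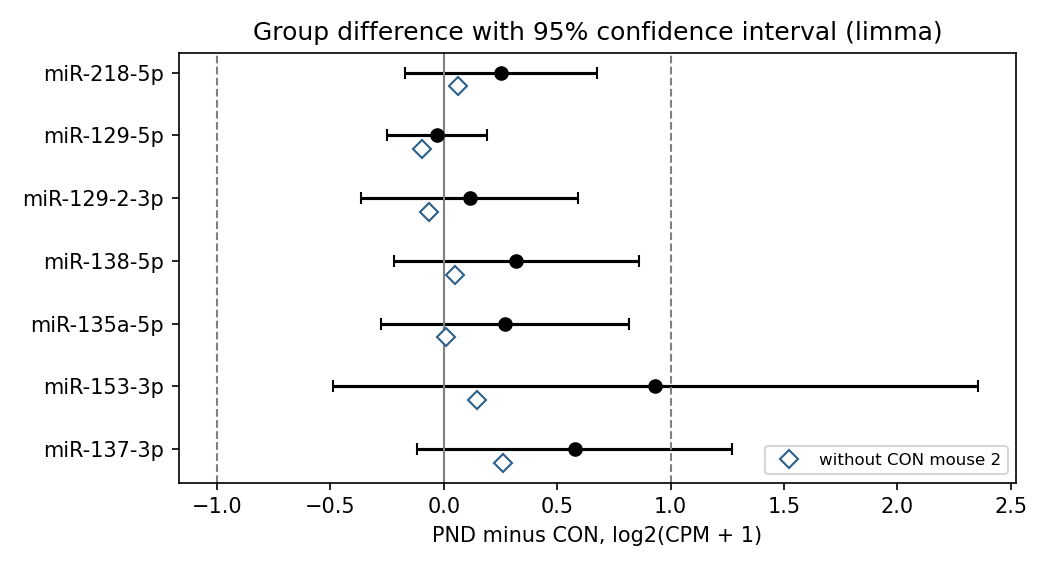
Difference between the group means (PND minus CON) on the log2(CPM + 1) scale for each miRNA, with the 95% confidence interval from limma over 3 mice per group, and dashed lines at 2-fold. Every interval includes 0, that of miR-153-3p is the widest (-0.49 to 2.36), and the open diamonds, which leave out CON mouse 2, lie between -0.10 and 0.26.

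The size of the differences depended on the scaling and on single mice. With TMM factors the log2 difference was 0.81 for miR-153-3p, 0.46 for miR-137-3p, 0.20 for miR-138-5p, 0.15 for miR-135a-5p, 0.13 for miR-218-5p and -0.15 for miR-129-5p. DESeq2 on the recovered reads gave 0.53 for miR-153-3p, 0.15 for miR-138-5p, 0.10 for miR-135a-5p, 0.10 for miR-218-5p and -0.18 for miR-129-5p. The differences of 5 of these miRNAs were thus smaller than in CPM, and that of miR-129-5p lay further below 0. Without PND mouse 1 the log2 difference was 1.13 for miR-153-3p, 0.75 for miR-137-3p, 0.42 for miR-138-5p, 0.37 for miR-135a-5p, 0.37 for miR-218-5p, 0.21 for miR-129-2-3p and -0.06 for miR-129-5p. Without PND mouse 3 it was 0.69 for miR-153-3p, 0.38 for miR-137-3p, 0.22 for miR-138-5p, 0.17 for miR-135a-5p, 0.14 for miR-218-5p, 0.03 for miR-129-2-3p and 0.01 for miR-129-5p. Without CON mouse 3 it was 0.38 for miR-218-5p and 0.07 for miR-129-2-3p. None of the 7 had a limma p under 0.05 without any 1 of the 6 mice.

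With 1 mouse left out, groups that do not overlap were more common among all entries as well. Without PND mouse 1 this held for 1 member (miR-137-3p) and 26% of all entries, and without CON mouse 1 for 2 members (miR-129-2-3p and miR-137-3p) and 22.7% of entries. Without CON mouse 2 it held for 1 member (miR-129-5p) and 16.2% of entries. It held for 0 members without PND mouse 2 (14.7% of entries), PND mouse 3 (15.8%) or CON mouse 3 (21.4%).

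The spread between mice of a group was larger for 6 of the 7 than for a typical miRNA of this abundance. Over these 193 miRNAs, the median within-group SD was 0.161 on the log2 scale. It was 1.03 for miR-153-3p (percentile 99.5), 0.478 for miR-137-3p (percentile 94.8), 0.368 for miR-135a-5p, 0.363 for miR-138-5p, 0.315 for miR-129-2-3p and 0.286 for miR-218-5p (percentile 80.8). The exception was miR-129-5p, at 0.0985 (percentile 25.9). The lowest level of 7 of the 7 was that of CON mouse 2, against 64.2% of the 193. PND mouse 3 had the highest level of 5, against 47.7% of the 193, and CON mouse 1 that of miR-129-5p and miR-129-2-3p. Mice of 1 group have no order, so these are differences between single libraries.

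The depth of the dip in CON mouse 2 differed among the members. The mean of the other CON mice was 5.31 times the level in CON mouse 2 for miR-153-3p, 1.96 times for miR-137-3p, 1.76 times for miR-138-5p and 1.73 times for miR-135a-5p. For miR-218-5p the ratio was 1.48, for miR-129-2-3p it was 1.47, and for miR-129-5p it was 1.15. CPM shares out a fixed total, and miR-128-3p was higher in CON mouse 2 (292349 CPM) than in the other mice (176370 to 232454 CPM). With miR-128-3p left out of the total, the ratio was 4.82 for miR-153-3p and 1.05 for miR-129-5p. TMM factors gave 4.53 and 0.98, and DESeq2 size factors gave 4.40 and 0.95, so that 6 of the 7, all but miR-129-5p, had their lowest level in CON mouse 2 under each of these scalings. TMM factors lowered the median log2 difference of the 361 miRNAs averaging 10 CPM or more from 0.14 to 0.02, and under them 5 members had a positive and 2 a negative sign.

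**Figure D3:**
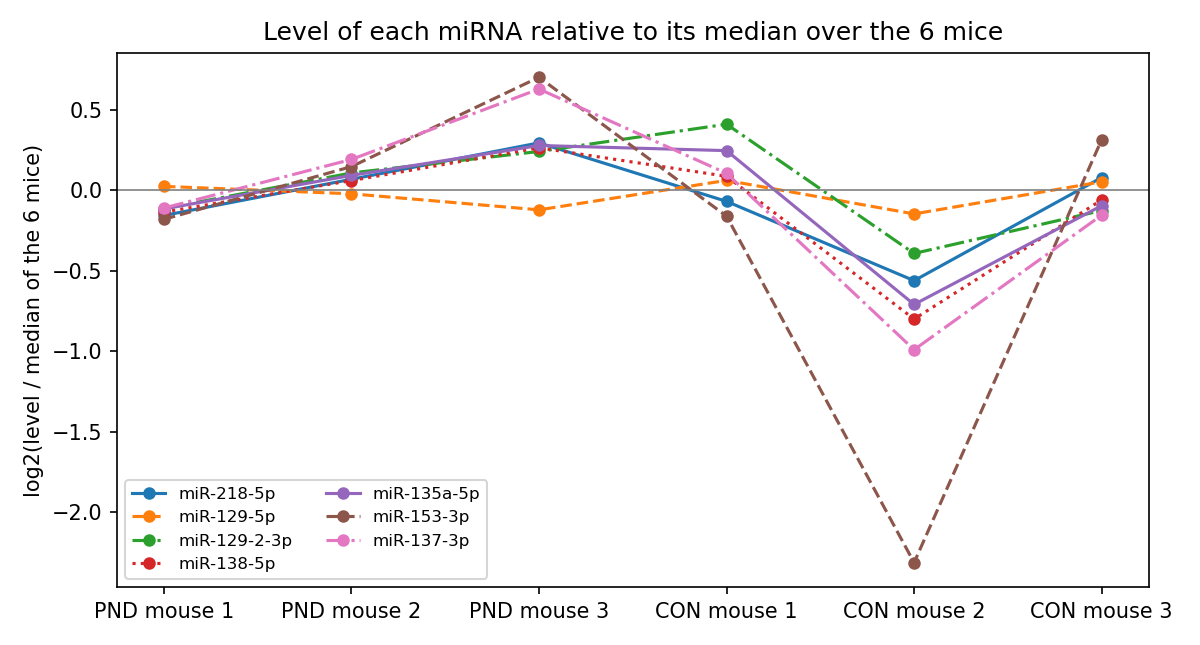
Level of each miRNA in each mouse relative to its median over the 6 mice, on a log2 axis, with lines joining the values of 1 miRNA for legibility only. The lines of 6 miRNAs drop together in CON mouse 2, most for miR-153-3p, whereas miR-129-5p stays near 0 in every mouse.

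The G + C content of the miRNA moved with its level in some libraries, across the 165 of these 193 miRNAs that could be matched to a sequence. In CON mouse 2 the median log2 difference from the median of the other 5 mice was -0.58 for the 35 miRNAs under 40% G + C, -0.19 for the 68 from 40% to under 50%, and -0.16 for the 62 of 50% or more. The first class holds 4 of the 7 (miR-135a-5p, miR-137-3p, miR-153-3p and miR-218-5p). For this class the value was 0.33 in PND mouse 3. Pearson's r across the 165 miRNAs was 0.51, -0.34 and -0.43 in PND mice 1 to 3 and 0.10, 0.33 and -0.16 in CON mice 1 to 3, and these miRNAs share a library and are not independent. Not every member followed G + C content: miR-138-5p (56.5%) was at 0.551 of the median of the other mice in CON mouse 2, whereas miR-129-5p (57.1%) was at 0.888. The part of G + C content in the dip was not tested.

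**Figure D4:**
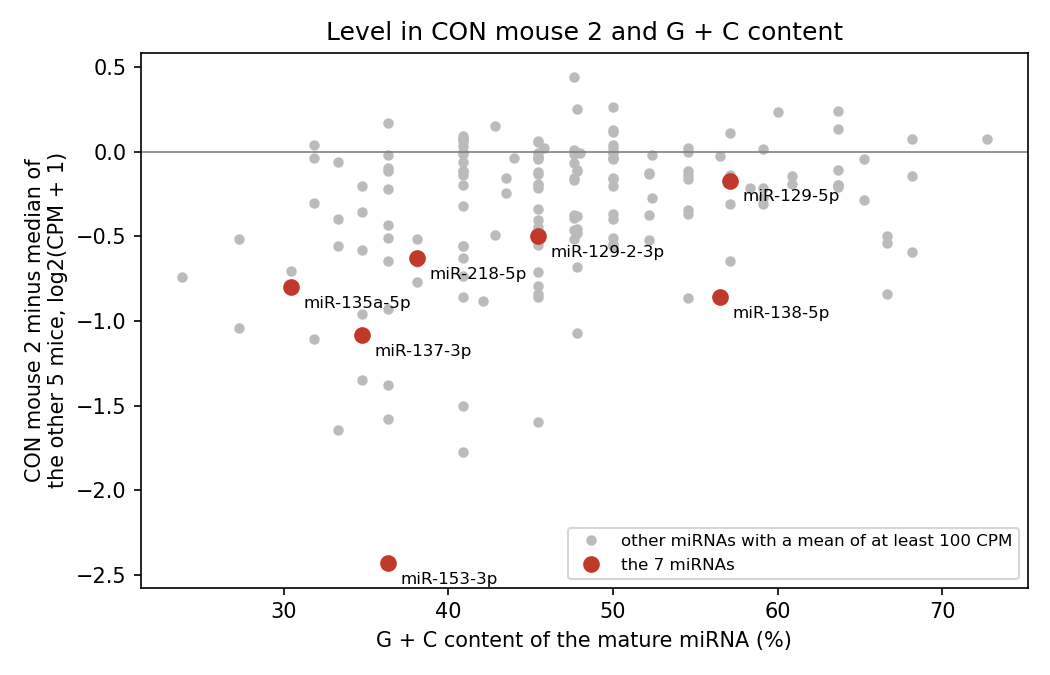
Log2(CPM + 1) in CON mouse 2 minus the median of the other 5 mice, against the G + C content (%) of the mature miRNA, for 165 miRNAs averaging 100 CPM or more, the 7 miRNAs in red. miR-153-3p, at 36.4% G + C, is the lowest point, and miR-138-5p and miR-129-5p differ although both are above 56%.

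The opposite arms of the same hairpins gave a comparison within each library that does not depend on the scaling between libraries. A total of 9 ratios could be formed, and miR-153-5p was not among the listed entries. In each of the 9 the member taken as numerator was the more abundant arm, by at least 9.39 times in every mouse. For miR-129-5p, miR-135a-5p, miR-138-5p and miR-218-5p the numerator can come from a pair of hairpins, whereas each opposite arm comes from only one of them. Their ratios can therefore also move with the level from the other hairpin. The ratio of miR-129-5p to miR-129-2-3p was 13.3, 11.0 and 9.39 in PND and 9.48, 14.3 and 13.7 in CON. The highest was that of CON mouse 2 and the lowest that of PND mouse 3, with both groups covering nearly the same range (exact permutation p = 0.5). miR-218-5p exceeded its opposite arms by 15516 to 77170 times, but these rested on only 4 to 20 reads of miR-218-1-3p or miR-218-2-3p, so the ratios are imprecise.

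The ratio of miR-135a-5p to miR-135a-1-3p was the only 1 of the 9 whose groups did not overlap. Among the levels of all entries, the share without overlap was 9.92%, so 1 of 9 does not stand out. It was 124, 183 and 146 in PND mice and 103, 44.8 and 108 in CON mice, a log2 difference of 0.91 that was 0.50 without CON mouse 2. The exact permutation p was 0.1, the smallest the design allows, and over the 9 ratios p ran from 0.1 to 0.8. The minor arm itself, miR-135a-1-3p (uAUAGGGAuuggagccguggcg, seed in capitals, G + C content 59.1%), stood at 2.82, 2.22 and 3.16 CPM in PND mice and at 4.39, 5.19 and 3.29 CPM in the CON mice. Every CON mouse was above every PND mouse, and CON mouse 2 was the highest. These levels were 39 to 77 reads, with a counting error of up to 16.0%. The log2 difference of miR-135a-1-3p was -0.49 (SE 0.20), with a limma p of 0.0423 before and 0.768 after adjustment over all entries. The arm from the other hairpin, miR-135a-2-3p, did not share this pattern. The ratio of miR-135a-5p to miR-135a-2-3p was 31.0, 33.4 and 37.6 in PND mice and 39.1, 16.4 and 31.9 in CON mice (exact permutation p = 0.7).

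The ratio of miR-137-3p to miR-137-5p was 62.5, 71.4 and 112 in PND mice and 44.6, 30.5 and 87.1 in CON mice. CON mice 1 and 2 were below all PND mice and CON mouse 3 was between them, on 23 to 51 reads of the 5p arm (exact permutation p = 0.3). For miR-138-5p, the ratio to miR-138-1-3p ran from 31.1 to 70.9 and the ratio to miR-138-2-3p from 17.3 to 30.5, both lowest in CON mouse 2 and highest in PND mouse 3. Without CON mouse 2 the log2 difference fell from 0.69 to 0.35 for miR-137-3p over miR-137-5p, from 0.29 to 0.05 for miR-138-5p over miR-138-1-3p and from 0.22 to 0.08 for miR-138-5p over miR-138-2-3p. The 5 ratios of miR-135a-5p, miR-137-3p and miR-138-5p were all lowest in CON mouse 2, where these miRNAs were thus lower relative to their opposite arms as well. Of the 10 listed opposite arms and miR-135b arms, 1 had an unadjusted limma p under 0.05 (miR-135a-1-3p, against 5.13% of all entries), the same 1 had groups that did not overlap (against 9.92% of all entries), and the signs were 5 positive and 5 negative with a median log2 difference of -0.01.

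**Figure D5:**
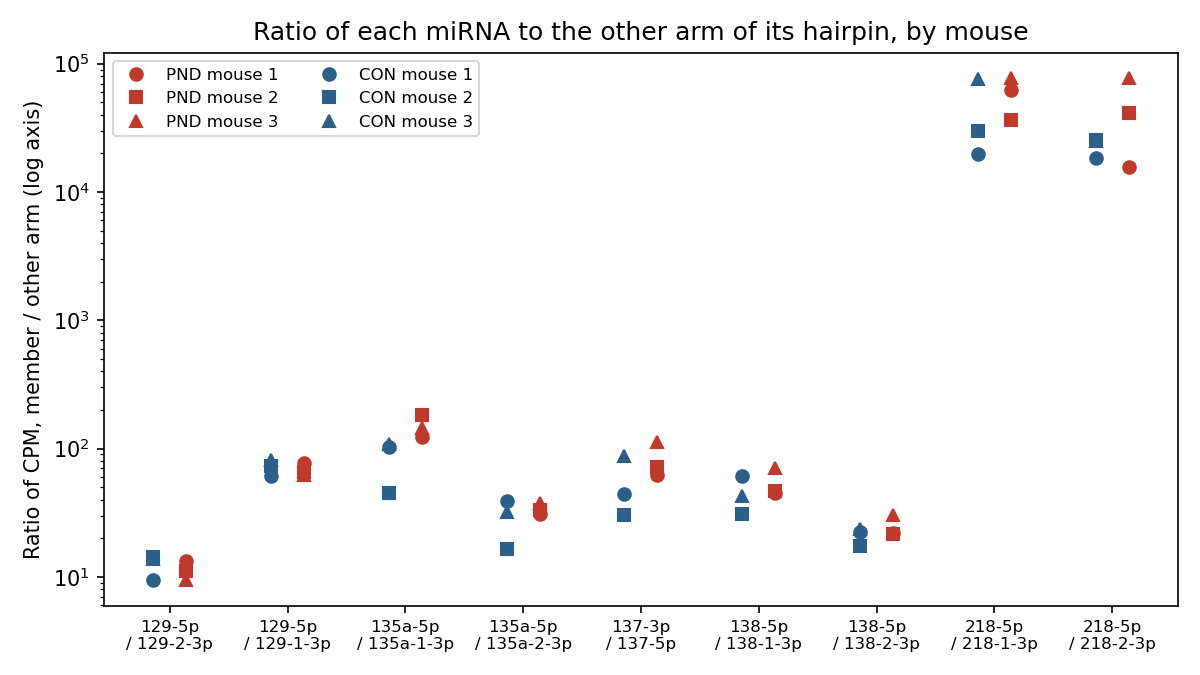
Ratio of the CPM of each member to that of an opposite arm of its hairpin (log axis) in each mouse, PND in red and CON in blue. The groups overlap in 8 of the 9 ratios, and for miR-135a-5p over miR-135a-1-3p the 3 PND mice (124 to 183) lie above the 3 CON mice (44.8 to 108). Among the levels of all entries, 9.92% have groups that do not overlap.

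miR-135b-5p, a near relative of miR-135a-5p from another locus, stood at 184, 201 and 219 CPM in PND mice and at 215, 130 and 180 CPM in the CON mice. Both miRNAs were highest in PND mouse 3 and lowest in CON mouse 2, and miR-135b-5p had a log2 difference of 0.23 (limma adjusted p = 0.768). The rule by which reads matching several miRNAs were assigned is not given in the sources used here, so reads of this pair could have been shared. miR-129b, read from the opposite strand of Mir129-2, had 0 to 2 reads per library on either arm.

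Of 20 other miRNAs with described roles at synapses or in excitability, 20 were listed, and 1 had an unadjusted limma p under 0.05, a share close to the 5.13% of all entries. This was miR-34a-5p, which is induced by p53, at 105 to 142 CPM in PND and 90.0 to 106 CPM in CON. Only PND mouse 1 fell inside the CON range. The log2 difference of miR-34a-5p was 0.40 (SE 0.15), with a limma p of 0.0311 before and 0.768 after adjustment, so it did not pass. None of the 20 had an adjusted p under 0.05, and 12 signs were positive and 8 negative with a median log2 difference of 0.10. A total of 9 of the 20 had their lowest level in CON mouse 2, beside 7 of the 7 members. The same held for 64.2% of the 193 miRNAs averaging 100 CPM or more and for 453 of the 1189 entries. Among the 9 was miR-381-3p, a dendritic miRNA of the miR-379/410 cluster, at 4244 CPM in CON mouse 2 and 7513 to 8972 CPM in the other mice.

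Over the 6 libraries each member had other miRNAs that varied closely with it, though not at a similar level in each case. The Pearson r of log2(CPM + 1) with 192 other miRNAs is given as a description, since it was picked as the highest and all values share the same libraries. miR-218-5p was most like miR-101b-3p (r = 0.999, and 0.996 over 5 libraries without CON mouse 2). miR-137-3p was most like miR-410-3p (r = 0.998, and 0.998 without CON mouse 2). The nearest to miR-135a-5p was miR-135b-5p (r = 0.997), that to miR-138-5p was miR-7b-5p (r = 0.995), and that to miR-153-3p was miR-666-5p (r = 0.997). miR-129-2-3p was closest to miR-342-3p (r = 0.987) and miR-129-5p to miR-411-3p (r = 0.959).

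Among the members themselves, the likeness depended in part on CON mouse 2. miR-153-3p and miR-218-5p had an r of 0.968 over 6 libraries and 0.977 over 5 without that mouse, and miR-137-3p and miR-138-5p had 0.976 and 0.953. In contrast, miR-135a-5p and miR-153-3p had 0.895 with CON mouse 2 and 0.346 without it. miR-129-5p and miR-137-3p had 0.215 with it and -0.901 without it. miR-129-5p and miR-129-2-3p, arms of the same Mir129-2 hairpin, had 0.347 and -0.222, while miR-129-5p can also come from Mir129-1.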

How the data were processed

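Small RNA libraries of 3 PND and 3 CON mice were analysed, grouped by their labels. According to the study's methods, the authors filtered reads with fastx, aligned them with Bowtie (0.12.2 in the submitters' processing notes, which also name the builds mm8 and mm9 without a role), assigned miRNAs by miRBase and scaled by TMM and then by total reads. The methods name a NEBNext small RNA kit and the labels a VAHTS total RNA kit. The deposited values are CPM, whose columns add up to 1000000, which leaves no TMM scaling in them, and 100% were whole reads within 0.1 read. Recovered reads (14849461 to 19471226 per library) served the count tests. No molecular identifiers are described, so floors and counting errors cover counting error only.

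With R 4.3.3, limma 3.58.1 (trend, no covariates) tested all 1189 entries as log2(CPM + 1), with Benjamini-Hochberg adjustment over all entries. On this scale the changes of low miRNAs are understated. Levels and arm ratios were compared by two-sided exact permutation tests over mice (10 splits). Alternatives were a pseudocount of 0.1, a mean of at least 10 CPM, no trend, TMM factors, DESeq2 size factors, CPM without miR-128-3p, fold changes of group means, the replicate block, edgeR 4.0.16, DESeq2 1.42.0 and leaving out each mouse. Named were the 7 miRNAs, their opposite arms and miR-135b, up to 4 of 20 other synaptic miRNAs by smallest p, marker lists and the miRNAs most alike by Pearson r. The members and lists were chosen with earlier results of these data known. Mice of a group were separate animals, and scripts were tested on simulated data. Hairpin positions are from GENCODE M21 and sequences from RefSeq. Python 3.11.15 was used for tables and figures.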

Additional observations from a re-analysis of the deposited data

How the results depend on the processing

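The number of members past both limits and the number with an adjusted p under 0.05 were 0 under each of the 17 alternatives run. The number with an unadjusted p under 0.05 was 0 in 16 and 1 with DESeq2 (miR-137-3p). Of the log2 fold changes, 110 kept their sign and 9 did not. The sign of miR-129-2-3p turned negative with TMM factors (-0.0080), DESeq2 size factors (-0.038), edgeR's quasi-likelihood test (-0.025), edgeR's exact test (-0.025) and DESeq2 (-0.053), all of which lowered the median of the 361 miRNAs averaging 10 CPM or more by 0.12 to 0.16. Leaving out 1 mouse moved the log2 fold change of miR-129-2-3p between -0.064 and 0.34 and that of miR-129-5p between -0.097 and 0.012. Scaling moved miR-129-5p to -0.15 (TMM factors), -0.18 (DESeq2 size factors and DESeq2) and -0.11 (miR-128-3p left out). Leaving out 1 mouse, the differences in CPM ran from -34.4 to 124.3 for miR-129-2-3p and from -450.3 to 42.7 for miR-129-5p. Likewise the PND minus CON difference of the log2 arm ratio ran from -0.18 to 0.024 for miR-129-5p over miR-129-1-3p. For miR-135a-5p over miR-135a-2-3p this difference ran from -0.059 to 0.57. An alternative chosen after seeing the data counted members whose groups did not overlap without 1 mouse, from 0 to 2, against 14.7% to 26% of all entries. The scaling of CON mouse 2 against the other CON mice was also chosen after seeing the data. The causes were not tested.

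Same-numbered mice share only a number in the labels. The correlations of their deviations were -0.128, 0.122 and 0.508 over 361 miRNAs, and 3 of 6 libraries correlated best with their own number. With the replicate number as a block, 0 members were called, and the adjusted p of limma ran from 0.746 to 0.968. Over all entries 2 passed both limits with the block, 21 with edgeR's quasi-likelihood test, 31 with its exact test, 11 with DESeq2, 22 with a pseudocount of 0.1, 42 by the fold change of group means and 0 with a mean of at least 10 CPM or without the trend, against 1 in the main test. With 3 mice per group, no exact permutation p can fall below 0.1. The low counts of miR-218-1-3p, miR-218-2-3p and miR-137-5p limit the ratios that use them.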
